A study of Homo sapiens with 15 samples.

Results

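The 42 genes described here encode the machinery that copies the genome and the regulators that commit a cell to doing so. They were listed by symbol and run from origin licensing through nucleotide supply and the G1/S regulators to replication checkpoint genes. All 42 were found among the 20806 gene entries of each library, and all 42 were among the 14246 genes that passed the filter on low counts and were tested.

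The cells were C4-2, a castration-resistant prostate cancer line derived from LNCaP. RNA was sequenced from 5 lines with 3 libraries each. Scramble is the control line with intact PNPLA2, which encodes ATGL (adipose triglyceride lipase), the enzyme that releases fatty acids from stored triglyceride. KO is the line in which PNPLA2 had been knocked out. The other 3 lines all carry that knockout as well and received ATGL back in different forms. KO + WT received the wild-type protein, KO + S47A a form without lipolytic activity because its catalytic serine is replaced by alanine, and KO + S404A a form with alanine in place of another serine. All cells were grown in RPMI1640 medium with 5 mM glucose and 5% dialyzed serum. There is 1 line per genotype, and its origin from 1 clone or a pool is not stated in the labels. The labels number the libraries of every line 1, 2 and 3 without saying what the number marks, and a library is named below by its line and number (KO 3). Nothing in the labels says that these were separate cultures, so the p-values rest on the spread among the libraries alone, and that spread may be technical.

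Replication starts at origins that were licensed in G1, when the origin recognition complex, CDC6 and CDT1 load the MCM helicase onto DNA. At the G1/S transition cyclin E with its kinase releases E2F transcription factors from RB proteins, and E2F1 and its relatives switch on most of the genes listed here, so that their transcripts are low in resting cells and high in cells entering S phase. MCM10, CDC7 and the GINS complex then turn loaded helicases into active forks, where polymerases, the PCNA clamp and its RFC loader, RPA, flap endonuclease and ligase do the synthesis. In RNA from a bulk culture, fewer cells in S phase and less of these transcripts per cell cannot be told apart.

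Many but not all promoters of these genes hold a form of the sequence through which E2F factors are known to act. In RefSeq promoters of GRCh38.p14, taken from 250 bases before to 50 bases after the start site, 38 of the 42 genes had an entry (not MCM4, MCM5, CCNE2 or RPA2). The 4 words TTTCGCGC, TTTGGCGC, TTTCCCGC and TTTGCCGC, which are forms of the E2F site, were searched on both strands, and a word on 1 strand may overlap a word on the other. At least 1 match lay in 21 of the 38 promoters (55.3%), against 3.33% of all 27305 promoters and 5.32% of the 11204 promoters of tested genes. All 6 licensing genes with an entry held a match, and MCM6, an MCM helicase subunit, held 4. The following 4 promoters are printed in the gene's direction with each match in capitals. E2F1 is shown because its product binds such sites, MCM6 for its 4 matches, and CLSPN and RPA1 because they had the largest and the smallest difference between libraries described below. CLSPN and RPA1 were therefore chosen after their values were seen.
E2F1, chr20:33686336-33686635, minus strand: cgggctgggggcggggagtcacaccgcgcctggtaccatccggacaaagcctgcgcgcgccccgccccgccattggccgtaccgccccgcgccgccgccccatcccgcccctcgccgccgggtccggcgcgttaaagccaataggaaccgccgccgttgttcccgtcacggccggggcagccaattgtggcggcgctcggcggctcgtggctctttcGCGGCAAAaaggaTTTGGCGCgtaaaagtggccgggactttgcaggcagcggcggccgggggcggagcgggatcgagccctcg
MCM6, chr2:135876394-135876693, minus strand: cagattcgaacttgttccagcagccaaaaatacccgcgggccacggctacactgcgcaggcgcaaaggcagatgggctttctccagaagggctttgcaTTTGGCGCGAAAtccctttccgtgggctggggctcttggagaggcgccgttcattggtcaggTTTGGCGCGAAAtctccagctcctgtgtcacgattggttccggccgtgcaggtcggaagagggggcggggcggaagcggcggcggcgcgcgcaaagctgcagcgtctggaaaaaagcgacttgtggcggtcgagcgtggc
CLSPN, chr1:35769929-35770228, minus strand: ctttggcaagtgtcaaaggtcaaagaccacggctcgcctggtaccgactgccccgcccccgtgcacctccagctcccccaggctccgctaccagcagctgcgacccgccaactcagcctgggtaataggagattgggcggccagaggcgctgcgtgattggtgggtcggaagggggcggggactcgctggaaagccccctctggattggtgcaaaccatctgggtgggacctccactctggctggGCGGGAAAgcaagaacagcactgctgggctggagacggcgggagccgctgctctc
RPA1, chr17:1829755-1830054, plus strand: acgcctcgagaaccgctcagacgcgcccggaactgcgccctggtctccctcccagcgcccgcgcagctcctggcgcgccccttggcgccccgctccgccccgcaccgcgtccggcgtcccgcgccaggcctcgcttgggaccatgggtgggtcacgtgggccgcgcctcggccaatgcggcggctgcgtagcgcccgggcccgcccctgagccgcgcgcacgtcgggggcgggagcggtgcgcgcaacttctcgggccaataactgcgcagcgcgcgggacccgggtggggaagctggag
E2F1 held 2 matches, CLSPN held 1 and RPA1 held 0 of these words in this window. A match is a run of letters and not evidence that a factor was bound in these cells.

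Each library held between 40846694 and 64345775 reads counted in genes. PNPLA2, which checks the labels, stood at 48.9 ± 4.76 CPM (mean ± SD, n = 3) in Scramble, 11.3 ± 1.99 in KO, 219.9 ± 18.1 in KO + WT, 129 ± 30.6 in KO + S47A and 413 ± 98.3 in KO + S404A. CPM is a gene's count relative to the library size after TMM scaling. All 10 luminal prostate markers were present in each library. Of 15 markers of basal, fibroblast, endothelial and blood cells, KRT5, TP63 and CD3E were at 0 in all 15 libraries and 7 others were at 0.338 CPM or lower. The remaining 5 were present in each library, namely KRT14 (1.38 to 4.63 CPM), COL1A1 (9.76 to 23.2), PDGFRB (2.48 to 5.13), VWF (5.06 to 14.69) and CD68 (7.12 to 11.0).

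Per kilobase of gene length, the most abundant member was TK1, thymidine kinase, at a mean level of 183 CPM per kb over the 15 libraries. MCM7 of the helicase followed at 139, the sliding clamp PCNA at 124, the clamp loader subunit RFC2 at 79.2 and the single-strand binding protein RPA1 at 73.4 CPM per kb. The lowest were the transcription factor E2F2 at 2.59, the leading-strand polymerase POLE at 3.36 and cyclin E1, CCNE1, at 4.49 CPM per kb. Lengths are those implied by the authors' FPKM values. Roles overlapped in level, since MCM5 of the helicase stood at 22.2 and the G1/S regulator E2F1 at 24.8 CPM per kb. By GENCODE 29, exons of 11 members overlap a coding gene on the opposite strand, among them CCNE2, FEN1, MCM2, MCM7, PRIM1, RFC4, RPA1 and TYMS. The sources used here do not state whether counting used strand. Without it, reads from the shared bases cannot be assigned to 1 of the 2 genes. Each library had 2.02% to 2.18% of its counts in an entry for ambiguous reads, which does not name their genes.

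The pattern shared by all 42 genes in every line followed the library number. In each of the 5 lines all 42 members were highest in the library numbered 3, a pattern shown by 16.3% of all tested genes. With line as a term in the edgeR quasi-likelihood model, 42 of 42 rose in number 3 against number 1 (Benjamini-Hochberg adjusted p between 1.73e-06 and 0.00454), where 42% of all tested genes were called and 20.1% were called higher. The median log2 difference of the members was 0.92, against -0.02 for all tested genes. Against number 2, again 42 of 42 rose (adjusted p between 5.75e-06 and 0.013), with a median of 0.80, where 36.5% of all genes were called and 18% were called higher. Both comparisons share the libraries numbered 3.

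Number 2 against number 1 showed no such step. By edgeR 0 of 42 members were called, 0 had an unadjusted p under 0.05, and the median log2 difference was 0.12, from -0.09 for GINS3 to 0.29 for UHRF1. DESeq2 called 0 members, with 1 at an unadjusted p under 0.05. Over all tested genes edgeR called 0 (0%), with 399 at an unadjusted p under 0.05.

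**Figure D1:**
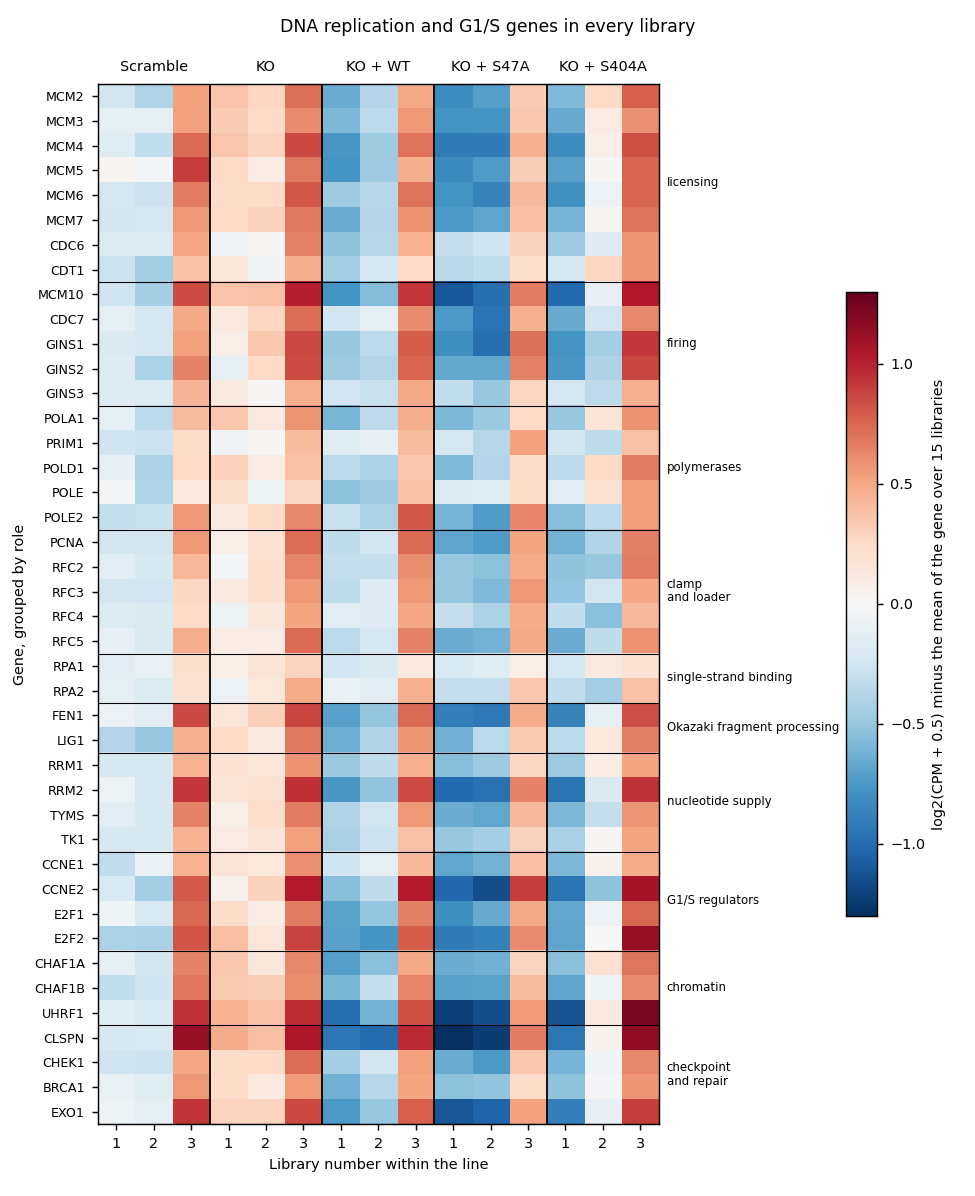
Level of the 42 genes in each of the 15 libraries, as log2(CPM + 0.5) minus the gene's mean over all libraries. Columns are libraries numbered 1 to 3 within each line and rows are genes grouped by role. The column numbered 3 is the reddest of its line for all 42 genes, and KO + S47A 1 and 2 are among the bluest.

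The size of the step differed among the roles. Median log2 differences of number 3 minus number 1 were 1.21 for the 4 G1/S regulators, 1.20 for the 5 firing factors, 1.11 for the 4 checkpoint and repair genes and 1.07 for the 2 genes of Okazaki fragment processing. They were 1.00 for chromatin assembly, 0.96 for the 8 licensing genes, 0.87 for the clamp and its loader and 0.84 for nucleotide supply. The lowest were 0.59 for the 5 polymerase genes and 0.45 for the 2 single-strand binding genes. These are descriptions, since differences between roles were not tested.

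**Figure D2:**
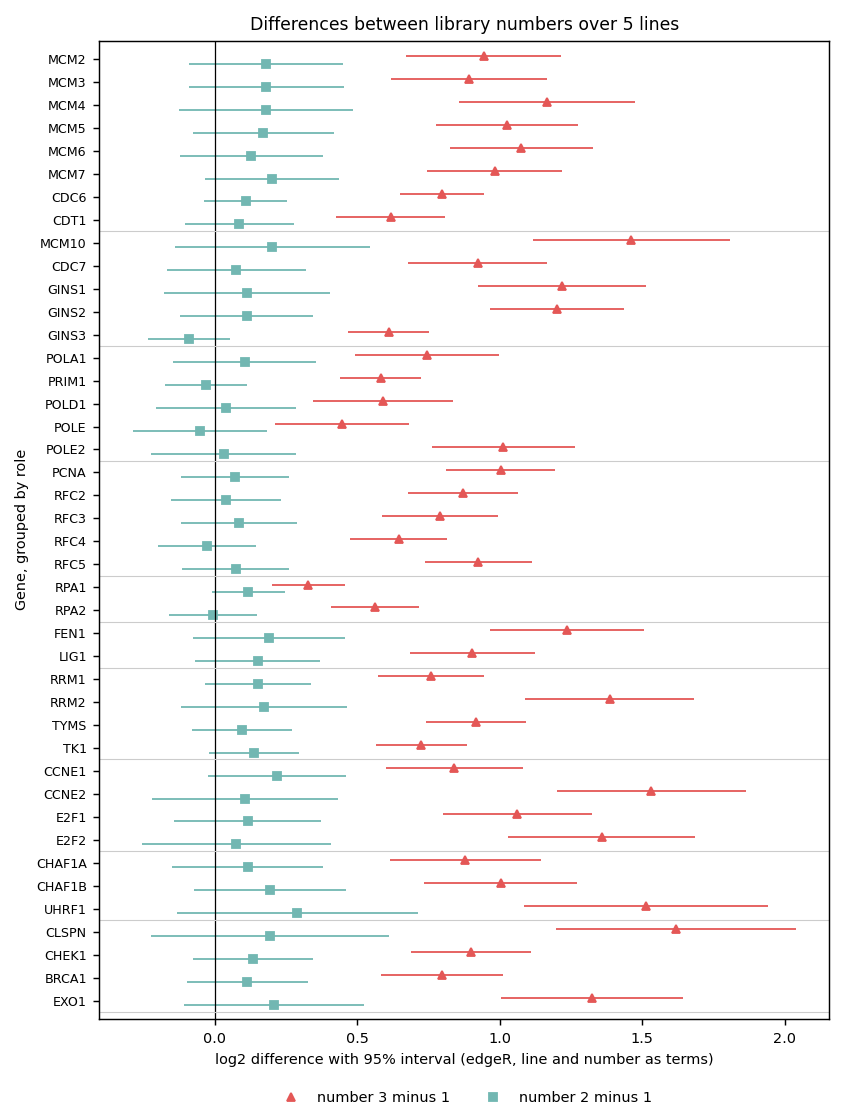
Log2 difference of each gene between library numbers, with 95% intervals, from the edgeR model with line and number as terms. Triangles are number 3 minus 1 and squares number 2 minus 1. All 42 triangles lie above 0, from 0.33 for RPA1 to 1.62 for CLSPN, while the squares lie between -0.09 and 0.29.

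Among the licensing genes, MCM7, a subunit of the helicase ring, had 382, 386 and 664 CPM in Scramble 1, 2 and 3, 539, 556 and 725 in KO, 288, 346 and 674 in KO + WT, 269, 280.0 and 593 in KO + S47A and 295, 463 and 734 in KO + S404A. Its partner MCM2 had 207, 186 and 354 CPM in Scramble 1, 2 and 3, 315, 295 and 401 in KO, 156, 187 and 342 in KO + WT, 138, 148 and 307 in KO + S47A and 164, 291 and 419 in KO + S404A. In both genes libraries 1 and 2 lay close together in each line but KO + S404A, and KO 1 and 2 lay nearer to the number 3 libraries than did libraries 1 and 2 of the other lines. MCM7 rose by 0.98 (log2, SE 0.11, adjusted p = 1.22e-05) and MCM2 by 0.94 (SE 0.13, adjusted p = 4.49e-05) in number 3 against number 1 in edgeR's test. The licensing member with the smallest difference was CDT1, a helicase loader, at 0.62, and the one with the largest was MCM4, another subunit of the ring, at 1.17.

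MCM10, which activates loaded helicases, had 48.6, 42.6 and 105 CPM in Scramble 1, 2 and 3, 75.3, 76.0 and 118 in KO, 33.8, 39.3 and 110.2 in KO + WT, 26.8, 29.4 and 92.8 in KO + S47A and 28.7, 54.2 and 120.0 in KO + S404A. All 5 libraries numbered 3 were above all other libraries, and KO + S404A 2 lay between its own libraries 1 and 3. The log2 difference of number 3 minus 1 was 1.46 (log2, SE 0.16, adjusted p = 1.06e-05) by edgeR. GINS1, a subunit of the complex that joins CDC45 to the helicase, had 99.8, 97.6 and 165 CPM in Scramble 1, 2 and 3, 120.4, 145 and 206 in KO, 80.4, 89.6 and 197 in KO + WT, 65.0, 57.4 and 187 in KO + S47A and 66.2, 83.4 and 215 in KO + S404A. KO + S404A 2 again lay between libraries 1 and 3 of its line, and the difference was 1.22 (SE 0.14, adjusted p = 1.25e-05). GINS3 of the same complex differed by 0.61, the smallest value among the firing factors.

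The polymerase genes had smaller differences than the firing factors by their medians. POLE, the catalytic subunit of the leading-strand polymerase, had 30.1, 23.4 and 33.6 CPM in Scramble 1, 2 and 3, 35.8, 29.3 and 37.3 in KO, 21.2, 22.1 and 40.1 in KO + WT, 27.4, 27.4 and 36.3 in KO + S47A and 27.6, 35.3 and 45.2 in KO + S404A. The libraries numbered 3 overlapped with the others, KO 1 being above Scramble 3, and the difference of number 3 minus 1 was 0.45 (log2, SE 0.11, adjusted p = 0.00454) by edgeR. PRIM1, the catalytic subunit of primase, had 63.8, 62.5 and 90.4 CPM in Scramble 1, 2 and 3, 74.0, 77.6 and 102 in KO, 68.5, 70.7 and 102 in KO + WT, 65.6, 58.7 and 109 in KO + S47A and 64.3, 60.5 and 99.7 in KO + S404A. Here the number 3 libraries were the 5 highest, and the difference was 0.58 (SE 0.07, adjusted p = 1.31e-05). POLA1, which extends the primers, had 45.1, 38.6 and 65.1 CPM in Scramble 1, 2 and 3, 62.8, 53.4 and 73.3 in KO, 32.2, 38.7 and 68.2 in KO + WT, 32.5, 34.8 and 58.8 in KO + S47A and 34.7, 55.0 and 73.8 in KO + S404A. KO 1 lay above KO + S47A 3, and the difference was 0.75 (SE 0.12, adjusted p = 0.000171). POLE2, an accessory subunit of the leading-strand polymerase, differed by 1.01, more than POLE itself.

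PCNA, the clamp that holds polymerases on DNA, had 207, 206 and 359 CPM in Scramble 1, 2 and 3, 258, 279 and 403.7 in KO, 194, 206 and 407 in KO + WT, 151, 146 and 349 in KO + S47A and 159, 185 and 384 in KO + S404A. The number 3 libraries were the 5 highest, and the difference of number 3 minus 1 was 1.00 (log2, SE 0.09, adjusted p = 2.43e-06) by edgeR. RFC3, a subunit of the clamp loader, had 122, 121 and 173 CPM in Scramble 1, 2 and 3, 156, 167 and 214 in KO, 115, 128 and 214 in KO + WT, 102, 96.3 and 213 in KO + S47A and 102, 122 and 205 in KO + S404A. It too was highest in the 5 number 3 libraries, with a difference of 0.79 (SE 0.10, adjusted p = 1.88e-05), and over the loader subunits the difference ran from 0.65 for RFC4 to 0.92 for RFC5.

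RPA1, the large subunit of the protein that coats single-stranded DNA, had 288, 297 and 366 CPM in Scramble 1, 2 and 3, 334, 355 and 387 in KO, 266, 277 and 347 in KO + WT, 275, 284 and 336 in KO + S47A and 269.5, 344 and 360.0 in KO + S404A. KO 2 lay above KO + S47A 3 and KO + WT 3, and the difference of 0.33 (log2, SE 0.06, adjusted p = 0.000532) by edgeR was the smallest of the 42 members. RPA2, the middle subunit, had 82.0, 79.1 and 103 CPM in Scramble 1, 2 and 3, 85.0, 98.4 and 125 in KO, 84.5, 80.9 and 124 in KO + WT, 72.4, 72.2 and 114 in KO + S47A and 71.5, 65.2 and 117 in KO + S404A. It did not share the overlap, since its number 3 libraries were the 5 highest, and it differed by 0.56 (SE 0.07, adjusted p = 2.91e-05).

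FEN1, the flap endonuclease that trims Okazaki fragments, had 122, 116 and 234 CPM in Scramble 1, 2 and 3, 143, 159 and 235 in KO, 78.4, 90.6 and 214 in KO + WT, 69.1, 67.1 and 180.2 in KO + S47A and 70.3, 118 and 229.8 in KO + S404A. The number 3 libraries were the 5 highest, and the difference of number 3 minus 1 was 1.24 (log2, SE 0.13, adjusted p = 6.41e-06) by edgeR. LIG1, the ligase that joins the trimmed fragments, had 20.0, 18.4 and 36.3 CPM in Scramble 1, 2 and 3, 31.5, 28.3 and 42.5 in KO, 16.6, 19.8 and 39.1 in KO + WT, 16.7, 20.3 and 33.2 in KO + S47A and 20.4, 28.9 and 41.5 in KO + S404A. KO 1 was the highest of the libraries numbered 1 and 2 and stayed below each number 3 library, and the difference was 0.90 (SE 0.10, adjusted p = 1.22e-05).

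TK1, which salvages thymidine, had 259, 259 and 409.5 CPM in Scramble 1, 2 and 3, 323, 337 and 434 in KO, 224, 247 and 391 in KO + WT, 212, 221 and 369 in KO + S47A and 223, 302 and 427 in KO + S404A. RRM1, the large subunit of the ribonucleotide reductase that makes deoxynucleotides, had 155, 155 and 245 CPM in Scramble 1, 2 and 3, 204, 199.9 and 268 in KO, 128, 142 and 247 in KO + WT, 122, 129 and 216 in KO + S47A and 129, 191 and 255 in KO + S404A. Both genes were highest in the 5 number 3 libraries. TK1 differed by 0.72 (log2, SE 0.07, adjusted p = 6.63e-06) and RRM1 by 0.76 (SE 0.09, adjusted p = 1.33e-05) in edgeR's test of number 3 minus 1. RRM2, the cell cycle-regulated subunit of the reductase, differed by 1.39, the largest value among the genes of nucleotide supply.

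E2F1, the activating transcription factor, had 60.0, 54.0 and 104 CPM in Scramble 1, 2 and 3, 73.5, 66.4 and 99.4 in KO, 38.3, 43.8 and 98.4 in KO + WT, 35.7, 39.3 and 87.8 in KO + S47A and 38.8, 58.9 and 105 in KO + S404A. E2F2, another activating member of that family, had 8.81, 8.72 and 21.3 CPM in Scramble 1, 2 and 3, 15.8, 13.3 and 22.3 in KO, 7.09, 6.77 and 20.8 in KO + WT, 6.10, 6.25 and 18.5 in KO + S47A and 7.17, 11.8 and 26.7 in KO + S404A. CCNE2, a cyclin E that drives entry into S phase, had 34.7, 29.3 and 69.7 CPM in Scramble 1, 2 and 3, 41.5, 49.3 and 82.0 in KO, 27.0, 31.6 and 82.1 in KO + WT, 19.4, 17.7 and 74.8 in KO + S47A and 20.5, 27.5 and 84.9 in KO + S404A. In all 3 genes the libraries numbered 3 were above the other 10. The differences of number 3 minus 1 were 1.53 (log2, SE 0.16, adjusted p = 6.2e-06) for CCNE2, 1.36 (SE 0.15, adjusted p = 1.22e-05) for E2F2 and 1.06 (SE 0.12, adjusted p = 1.3e-05) for E2F1 by edgeR, and 0.84 for CCNE1, the other cyclin E gene.

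UHRF1, which keeps DNA methylation on newly copied strands, had 35.6, 34.6 and 76.9 CPM in Scramble 1, 2 and 3, 54.7, 51.9 and 78.1 in KO, 19.9, 25.9 and 71.0 in KO + WT, 16.9, 17.6 and 58.6 in KO + S47A and 17.9, 43.7 and 94.1 in KO + S404A. The number 3 libraries were the 5 highest, and KO + S404A 2 lay far above KO + S404A 1. The difference of number 3 minus 1 was 1.51 (log2, SE 0.20, adjusted p = 3.98e-05) by edgeR. CHAF1A, the large subunit of the factor that places histones on copied DNA, had 66.5, 61.1 and 113 CPM in Scramble 1, 2 and 3, 92.1, 80.3 and 112 in KO, 43.7, 49.3 and 101 in KO + WT, 46.1, 46.8 and 88.1 in KO + S47A and 49.5, 82.8 and 117 in KO + S404A. Its KO 1 library lay above KO + S47A 3, and its difference was 0.88 (SE 0.12, adjusted p = 6.83e-05).

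CLSPN encodes claspin, the adaptor through which stalled forks activate the checkpoint kinase CHEK1. It had 22.6, 22.8 and 57.9 CPM in Scramble 1, 2 and 3, 36.7, 34.6 and 54.6 in KO, 13.4, 12.8 and 51.5 in KO + WT, 9.82, 10.8 and 41.8 in KO + S47A and 13.4, 26.9 and 58.6 in KO + S404A. The 5 number 3 libraries did not overlap with the others. Its difference of number 3 minus 1, 1.62 (log2, SE 0.20, adjusted p = 1.99e-05) by edgeR, was the largest of the 42 members and came to a 3.07-fold higher level. CHEK1 itself had 42.1, 41.7 and 71.6 CPM in Scramble 1, 2 and 3, 59.3, 60.4 and 83.7 in KO, 37.0, 42.7 and 73.3 in KO + WT, 32.0, 29.7 and 64.6 in KO + S47A and 32.9, 48.7 and 78.2 in KO + S404A. It was also highest in the 5 number 3 libraries and differed by 0.90 (SE 0.10, adjusted p = 9.97e-06), and BRCA1, a repair gene, differed by 0.80.

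**Figure D3:**
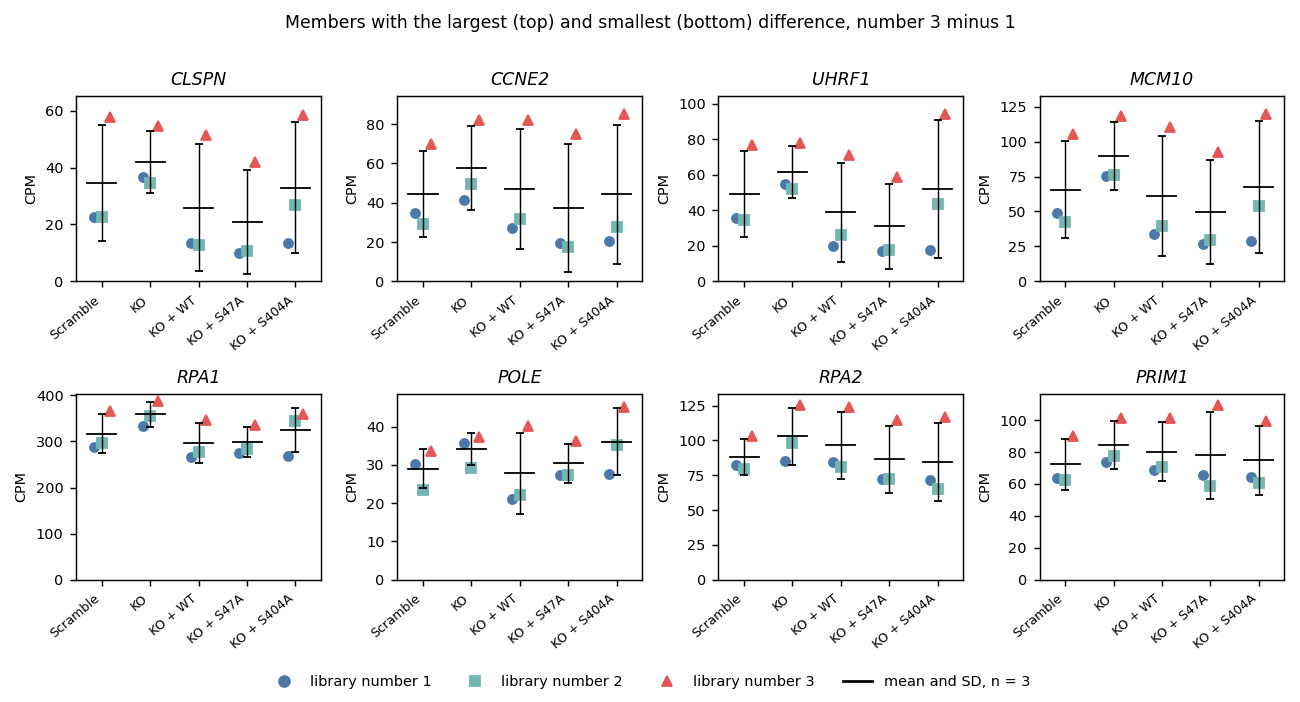
CPM of the 4 members with the largest (top) and the 4 with the smallest (bottom) log2 difference of number 3 minus 1, in each library. Horizontal bars are the mean and vertical bars the SD of 3 libraries, and every axis starts at 0. CLSPN, CCNE2, UHRF1 and MCM10 have each number 3 library above all others, and POLE and RPA1 do not.

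In all, 35 of 42 members had each of the 5 number 3 libraries above all 10 libraries numbered 1 and 2, as did 5.92% of all tested genes. Members with an E2F word in the promoter had a median difference of 0.98 (21 genes, 0.45 to 1.62), and members without had 0.87 (17 genes, 0.33 to 1.46). The ranges overlapped.

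The step was of unequal size in the lines. The median over members of library 3 minus the mean of libraries 1 and 2, in log2(CPM + 0.5), was 0.49 in KO, 0.78 in Scramble, 0.98 in KO + S404A, 1.02 in KO + WT and 1.10 in KO + S47A. RPA1 had the smallest step in each of the 5 lines, from 0.17 in KO to 0.35 in KO + WT. CLSPN had the largest in Scramble (1.33) and KO + WT (1.94), and CCNE2 in KO (0.85), KO + S47A (1.99) and KO + S404A (1.82). With 1 library numbered 3 per line these sizes have no replicate, and they were not tested against each other.

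Library 2 lay above library 1 for 38 of 42 members in KO + S404A, 35 in KO + WT, 25 in KO + S47A, 21 in KO and 8 in Scramble. The same was not counted over all tested genes, so these counts are not shown to be particular to the members. The median difference of library 2 minus library 1 was widest in KO + S404A, at 0.54. In the other lines it was -0.05 in Scramble, 0.00 in KO, 0.16 in KO + WT and 0.02 in KO + S47A. KO + S404A 2 also had the lowest share of counts assigned to no gene, 13.2% against 15.5% to 20.6% in the other libraries. It had the longest mean gene length weighted by counts, 3886 bases against 3543 to 3827. The 3827 bases were those of KO 1, with 15.8% of counts assigned to no gene, a library that enters each comparison with KO. Their part in the members' values was not tested.

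The lines themselves were set apart in libraries 1 and 2 and drawn together in library 3. The median range among the 5 lines was 0.87 log2 units in number 1, 0.87 in number 2 and 0.31 in number 3, and it was smaller in number 3 than in number 1 for 40 members and than in number 2 for 42. KO was the highest line for 42 members in number 1 and for 36 in number 2. In number 3, KO was highest for 17 and KO + S404A for 17. KO + S47A was the lowest line for 27, 34 and 31 members in numbers 1, 2 and 3. These ranges and counts were not set against all tested genes, so they are not shown to be particular to the members.

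Knockout of ATGL came with no called change in these genes by the unblocked test. KO and Scramble are 1 line each, and chromosome 22 genes also differed between them (median log2 difference -0.32 over 370 genes). Loss of the lipase therefore cannot be told apart from other differences between these lines. In KO minus Scramble edgeR called 0 of 42 members (2.69% of all tested genes were called), and DESeq2 called 0. By edgeR 0 members had an unadjusted p under 0.05, against 1817 of all 14246 genes. The step between numbers is part of the spread in the unblocked tests of lines. The fitted log2 differences were above 0 for all 42 in edgeR, with a median of 0.28 (0.02 over all genes), from 0.00 for MCM5 to 0.45 for MCM10. DESeq2 put MCM5 at -0.01. MCM10 stood at 89.8 ± 24.5 CPM in KO and 65.6 ± 34.7 in Scramble (n = 3 each), with an interval of the unblocked log2 difference from -0.85 to 1.76. It was higher in KO than in Scramble within each number, and its blocked difference of 0.57 (SE 0.20, adjusted p = 0.106 by edgeR) was the largest of the members. MCM2 stood at 337 ± 56.3 against 249 ± 91.5 CPM (0.44, SE 0.40, adjusted p = 0.754 by edgeR).

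With the library number as a block, 1 of 42 members rose in KO and 28 had an unadjusted p under 0.05, as did 3260 of all 14246 genes. The 1 called was LIG1, at 31.5, 28.3 and 42.5 CPM in KO 1, 2 and 3 against 20.0, 18.4 and 36.3 in Scramble (log2 difference 0.51, SE 0.13, adjusted p = 0.0266 by edgeR with the block, where 8.29% of all genes were called). In LIG1 each KO library was above the Scramble library of the same number. With libraries numbered 1 and 2 only, 2 members rose, LIG1 (adjusted p = 0.0494) and POLE2 (adjusted p = 0.0492), where 5.37% of all genes were called. All members but 1 (41 of 42) had KO 1 and 2 above Scramble 1 and 2, as did 29.1% of all tested genes. The median over members was 0.34 in number 1, 0.43 in number 2 and 0.13 in number 3, and the unblocked fit gave 0.58 without Scramble 3 and 0.11 without KO 3.

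The 3 lines with ATGL added back had fitted levels below KO by their medians, with 0 calls by the unblocked test. Each is 1 line, so the added protein cannot be told apart from other differences between the lines. The 3 comparisons share the KO libraries, so that a high or low KO value enters each of them. In KO + WT minus KO, edgeR called 0 of 42 members (0.0281% of all genes), and DESeq2 called 0. By edgeR 0 members had an unadjusted p under 0.05, against 1080 of all 14246 genes. The median was -0.37, from -0.70 for CLSPN to -0.07 for PRIM1. With the number as a block edgeR again called 0 members (0.105% of all genes), the lowest adjusted p being 0.0944, and 37 had an unadjusted p under 0.05, as did 3324 of all genes. The blocked median was -0.45. Within numbers 1, 2 and 3 the median was -0.67, -0.51 and -0.10, with 42, 42 and 35 members below 0. MCM7 stood at 436 ± 208 CPM in KO + WT against 607 ± 103 in KO (log2 difference -0.48, interval -1.33 to 0.38). Libraries 1 and 2 alone gave 1 call, CLSPN, which fell (log2 difference -1.45, adjusted p = 0.0455 by edgeR), where 0.3% of all genes were called. The median was -0.82 without KO + WT 3 and -0.17 without KO + WT 1.

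In the fit of all 15 libraries the line with the lipolytically inactive protein had the largest median difference from KO of the 3 add-back lines. In KO + S47A minus KO edgeR called 0 of 42 members (0.00702% of all genes). It gave an unadjusted p under 0.05 for 0 members, against 2397 of all 14246 genes. DESeq2 called 0, with 1 at an unadjusted p under 0.05. All 42 fitted differences were below 0, with a median of -0.56, from -1.01 for CLSPN to -0.12 for PRIM1. The lowest adjusted p was 0.323, for MCM2 (-0.77, interval -1.62 to 0.08). No member had its 3 KO libraries above its 3 KO + S47A libraries (0 of 42, against 11.1% of all genes). That count sets KO + S47A 3 against KO 1 and 2, so it takes in the step between numbers. It therefore cannot decide whether the members were higher in KO. Within numbers 1, 2 and 3, 42, 42 and 40 members were lower in KO + S47A than in KO. Over all tested genes the counts within numbers were not made.

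With the library number as a block, 39 of 42 members fell in KO + S47A against KO (edgeR adjusted p between 0.00378 and 0.0479), where 22.1% of all genes were called and 11.5% were called lower. The 3 that were not called were PRIM1 (-0.15, adjusted p = 0.211), POLE (-0.18, adjusted p = 0.381) and RFC4 (-0.28, adjusted p = 0.0643). The largest blocked differences among members named here were CLSPN, which fell by 1.34 (SE 0.25, adjusted p = 0.0045), UHRF1 by 1.25 (SE 0.26, adjusted p = 0.00608) and MCM10 by 1.09 (SE 0.21, adjusted p = 0.00466). MCM2 fell by 0.87 and PCNA by 0.64. CHEK1 had the smallest adjusted p, 0.00378, and fell by 0.76 (SE 0.13).

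Libraries 1 and 2 alone gave 38 members lower in KO + S47A than in KO (21.6% of all genes were called), with CLSPN at 36.7 and 34.6 CPM in KO against 9.82 and 10.8 in KO + S47A. For all 42 members KO 1 and 2 were above KO + S47A 1 and 2, as they were for 32.5% of all tested genes. In number 3 the median difference was -0.26 and 40 members were below 0, against -0.87 in number 1 and -0.87 in number 2. The unblocked median was -1.06 without KO + S47A 3 and -0.36 without KO + S47A 1.

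**Figure D4:**
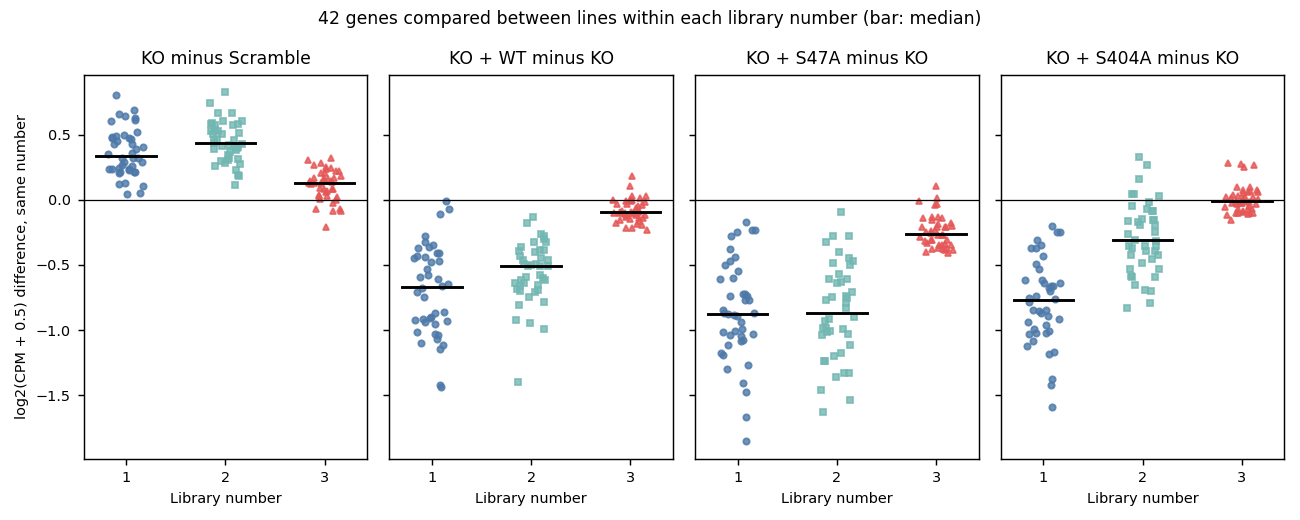
Log2(CPM + 0.5) difference of each of the 42 genes between lines within each library number, for KO minus Scramble and for each add-back line minus KO. Points are genes and bars medians. The medians in number 3, at 0.13, -0.10, -0.26 and -0.01, lie nearer to 0 than those in numbers 1 and 2. In KO + S47A minus KO 40 of the 42 genes still lie below 0 in number 3.

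In KO + S404A the fitted levels were below those in KO for 40 members. In KO + S404A minus KO edgeR called 0 of 42 members (0.0211% of all genes), and DESeq2 called 0. By edgeR 0 members had an unadjusted p under 0.05, against 581 of all 14246 genes. The median was -0.29, from -0.41 for MCM10 to 0.08 for POLE. Within numbers the median was -0.77 in number 1, -0.31 in number 2 and -0.01 in number 3, with 42, 36 and 22 members below 0. Libraries 1 and 2 alone gave 12 members lower (2.81% of all genes were called), namely CCNE2, CDC7, GINS1, GINS2, PCNA, POLE2, RFC2, RFC3, RFC4, RFC5, RPA2 and TYMS. The median was -0.69 without KO + S404A 3 and -0.03 without KO + S404A 1.

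The 3 forms of ATGL were also compared with each other and edgeR called 0 of 42 members in each comparison, with 0 at an unadjusted p under 0.05. All genes called were 0% in KO + WT minus KO + S47A, 0% in KO + S404A minus KO + WT and 0.00702% in KO + S404A minus KO + S47A. In the same order 309, 1239 and 939 of all 14246 genes had an unadjusted p under 0.05 by edgeR. DESeq2 called 0 members in each. With the number as a block edgeR also called 0 members, where 0.0211%, 0% and 0.014% of all genes were called, and 8, 7 and 22 members had an unadjusted p under 0.05. Over all genes 1324, 2465 and 2806 did so. The unblocked medians were 0.19 for KO + WT minus KO + S47A, 0.13 for KO + S404A minus KO + WT and 0.30 for KO + S404A minus KO + S47A. The widest fitted difference was that of UHRF1 in KO + S404A minus KO + S47A, at 0.74 with an interval from -0.62 to 2.10. For PCNA the interval of KO + WT minus KO + S47A ran from -0.58 to 1.22.

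Against Scramble, the add-back lines likewise had 0 of 42 members called by edgeR, 0 at an unadjusted p under 0.05 and 0 called by DESeq2. Of all genes 3.47% were called in KO + WT, 3.82% in KO + S47A and 3.11% in KO + S404A. In the same order 2114, 2682 and 2243 of all 14246 genes had an unadjusted p under 0.05 by edgeR. The medians over members were -0.10, -0.27 and -0.01. With the number as a block, 11 members fell in KO + S47A against Scramble (19.5% of all genes were called), namely CDC7, CLSPN, E2F1, EXO1, FEN1, MCM3, MCM5, MCM6, RRM2, TYMS and UHRF1. CLSPN fell by 0.88 (SE 0.25, adjusted p = 0.024). Libraries 1 and 2 alone gave 16 (15% of all genes). In KO + WT against Scramble the block gave 1, MCM5 (adjusted p = 0.0256, where 10% of all genes were called). The unblocked median of KO + S47A minus Scramble was -0.79 without KO + S47A 3 and 0.02 without Scramble 3, and that of KO + WT minus Scramble was -0.50 without KO + WT 3 and 0.22 without Scramble 3.

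MCM5 did not keep the ratio to its partners that it had in Scramble. Its level relative to the mean log2 CPM of MCM2, MCM3, MCM4, MCM6 and MCM7, the other subunits of the same ring, was -0.60, -0.57 and -0.54 in Scramble 1, 2 and 3. In the 12 other libraries it lay between -0.997 and -0.77, with line means of -0.92 in KO, -0.95 in KO + WT, -0.84 in KO + S47A and -0.84 in KO + S404A. The 3 Scramble libraries did not overlap with the other 12. MCM5 was singled out after its values were seen, and no test was made. It is the only member on chromosome 22, whose 370 tested genes had a median log2 difference from Scramble of -0.32 in KO, -0.38 in KO + WT, -0.33 in KO + S47A and -0.28 in KO + S404A. The part of this in the MCM5 values was not tested.

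**Figure D5:**
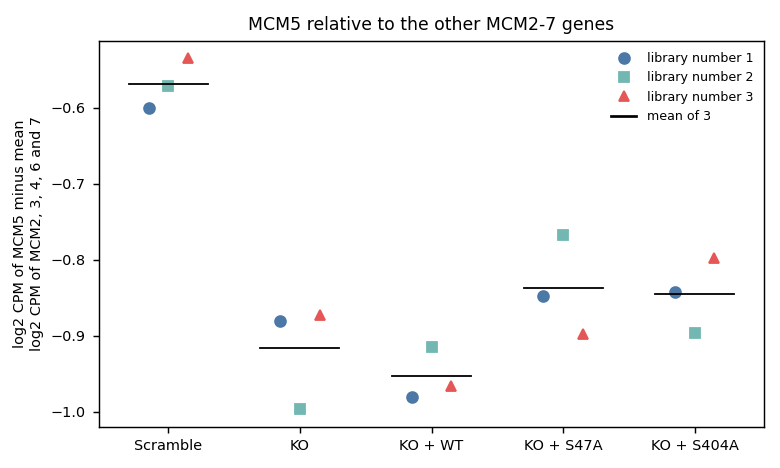
Log2 level of MCM5 minus the mean log2 level of the other 5 genes of the MCM ring in each library, with the mean of 3 libraries as a bar. The Scramble libraries lie between -0.60 and -0.54 and the other 12 between -0.997 and -0.77, in library 3 as in libraries 1 and 2.

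Other genes of the pathway moved with library number in the same way. Of 30 further origin and replisome genes 26 rose and 1 fell in number 3 against number 1 by edgeR, with a median of 0.71. Among all 14246 tested genes 2865 rose and 3112 fell. TICRR, which helps to load CDC45, rose most (1.35, SE 0.17, adjusted p = 2.94e-05), and POLD4, a small accessory subunit of the lagging-strand polymerase, fell by 0.37 (SE 0.07, adjusted p = 0.00112). ORC3, ORC4 and POLE4 were not called. All 16 other S phase genes rose, with a median of 0.80. In KO minus Scramble and in KO + S47A minus KO edgeR called 0 genes of either list without the block. With the block, KO minus Scramble had 7 of the 16 S phase genes higher, where 467 of all genes rose and 714 fell. Of the 30 origin and replisome genes TIMELESS, a fork protection gene, rose (0.42) and POLD4 fell by 0.43. In KO + S47A minus KO with the block, all 16 S phase genes fell, as did 21 of the 30, while POLD4 rose (0.46, SE 0.10, adjusted p = 0.00685 by edgeR). Among all tested genes 1510 rose and 1640 fell in that fit.

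Among the regulators around E2F some rose and some fell. Of 23 tested genes of the E2F, RB and cyclin list 15 rose and 5 fell in number 3 against number 1, where 2865 of all genes rose and 3112 fell. CDC25A, a phosphatase that activates cyclin-dependent kinases, rose by 1.45 (SE 0.14, adjusted p = 4.66e-06), and cyclin A2, CCNA2, by 1.29 (SE 0.17, adjusted p = 3.05e-05). The 5 that fell were CDKN1A, CDKN1B and CDKN1C, inhibitors of these kinases, RBL2, an RB relative found in resting cells, and E2F5, a repressor E2F. CDKN2C, another kinase inhibitor on the list, rose (0.95, SE 0.10, adjusted p = 9.97e-06). CDKN1C fell by 1.03 (SE 0.18, adjusted p = 0.000306) at levels of 0.86 to 3.10 CPM, and CDKN1B by 0.46 (SE 0.08, adjusted p = 0.000253). CDKN1A, the p53 target p21, fell by 0.53 (SE 0.15, adjusted p = 0.0126). It stood at 79.7, 94.0 and 34.3 CPM in KO + S47A 1, 2 and 3 and at 43.8, 41.4 and 36.5 in KO, and KO + S47A 1 and 2 were its 2 highest libraries. In KO + S47A minus KO it was not called without the block (0.77, adjusted p = 0.274) and rose with it (0.70, SE 0.20, adjusted p = 0.0222 by edgeR). The other inhibitors on the list did not all follow it with the block. CDKN1B rose (0.39, adjusted p = 0.0152), CDKN2C fell (-0.73, adjusted p = 0.00443) and CDKN1C was not called (-0.33, adjusted p = 0.307 by edgeR). CCNA2 and CDC25A fell there (-1.02 and -1.13).

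The summed level of the 42 members lay between 2822 and 4934 CPM in number 1, 2848 and 5031 in number 2 and 5782 and 6912 in number 3. Values of 2 other lists moved beside it. All 20 mitosis genes rose in number 3 against number 1 (median 1.04), and all 20 genes of the ATF4 and amino acid response fell (median -1.54). Among all 14246 tested genes 2865 rose and 3112 fell. The summed ATF4 list lay between 5591 and 10394 CPM in number 1 and between 2619 and 3709 in number 3. In KO + S47A minus KO edgeR called 0 genes of either list without the block, with a median of -0.70 for mitosis and 0.90 for the ATF4 list. With the block all 20 mitosis genes fell (median -0.82) and 19 of the 20 ATF4 genes rose (median 0.83). Among all tested genes 1640 fell and 1510 rose with the block. The summed mitosis level was 2792, 2857 and 4066 CPM in KO 1, 2 and 3 and 1366, 1398 and 3379 in KO + S47A. The part of these in the members' values was not tested.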

How the data were processed

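RNA of 15 libraries of C4-2 cells was poly(A)-selected and made into directional libraries, per the labels' protocols. The authors deposited whole-number read counts per gene, not normalized, which were the input of every test. They also deposited FPKM values, from which gene lengths were derived and nothing else. The submitters' processing notes name CASAVA and STAR. Versions, build, annotation and any use of strand in counting are not stated there (not given in the sources used here). Entries that name no gene held 13.2% to 20.6% of the counts and were left out. The number of sample columns left unused was 0.

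With R 4.3.3 and edgeR 4.0.16, genes were filtered by filterByExpr, library sizes were scaled by TMM, and a quasi-likelihood model with 1 mean per line was fitted to all 15 libraries (10 residual degrees of freedom). Library numbers were compared in a model with line and number as terms. Calls rest on Benjamini-Hochberg adjustment over all 14246 genes tested, with a threshold of 0.05. The SE was derived from the log2 difference and its F statistic, and the 95% intervals from that SE. Log2 levels used CPM + 0.5. The fit was tested on simulated data. DESeq2 1.42.0, RLE scaling, no filter, fits of the 2 lines only, libraries numbered 1 and 2 only, the number as a block and leaving out each library or each line in turn were alternatives.

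Same-numbered libraries of 2 lines deviated together from their line means, with each of the 3 correlations across genes over 0.1, in 8 of the 10 comparisons of lines. Deviations from a mean of 3 are linked, so a shared step in number 3 alone can also give such correlations in numbers 1 and 2. In KO + WT minus KO and in KO + S47A minus KO only 3 libraries correlated best with their own number. KO 1 correlated at 0.21 with KO + S47A 1 and at 0.23 with KO + S47A 2. Pairing of numbers 1 and 2 is therefore not shown. In KO + S404A minus KO and KO + S404A minus Scramble the lowest correlation was 0.02 and 0.07, so there the numbers were not taken to pair the libraries. Blocked values stand beside a result where they change a call.

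The members and gene lists were chosen with earlier results of these data known. Genes given in every library were the 4 with the largest and the 4 with the smallest difference of number 3 minus 1 and, in each role, the gene with the highest level per length and that with the largest difference of KO minus Scramble.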

Additional observations from a re-analysis of the deposited data

How the results depend on the processing

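In all 10 comparisons of lines and in number 2 minus number 1, edgeR called 0 of 42 members under RLE scaling, without the filter, with the 2 lines only, with DESeq2 and with each library left out (0 to 0). In number 3 minus 1 the count was 42 to 42 with each library or each line left out. In number 3 minus 2 it was 42 to 42 with each library left out and 41 without Scramble, KO + WT or KO + S47A, the call lost being RPA1 each time (adjusted p between 0.0728 and 0.0753 by edgeR). With the number as a block, 1 member was called in KO minus Scramble, 39 in KO + S47A minus KO, 1 in KO + WT minus Scramble and 11 in KO + S47A minus Scramble, and the block changed no other call of a member. With libraries numbered 1 and 2 only the counts were 2 in KO minus Scramble, 1 in KO + WT minus KO, 38 in KO + S47A minus KO, 12 in KO + S404A minus KO and 16 in KO + S47A minus Scramble. Those fits remove from the spread, or leave out, the step between numbers: the SD of the members' mean within a line was 0.54 log2 units, and 0.19 once the number was taken out. Leaving out each library in turn gave member medians from 0.11 to 0.58 in KO minus Scramble, -0.82 to -0.17 in KO + WT minus KO, -1.06 to -0.36 in KO + S47A minus KO and -0.69 to -0.03 in KO + S404A minus KO. It gave -0.50 to 0.22, -0.79 to 0.02 and -0.43 to 0.29 for KO + WT, KO + S47A and KO + S404A minus Scramble. It gave -0.23 to 0.70 for KO + WT minus KO + S47A and -0.33 to 0.54 for KO + S404A minus KO + WT. For KO + S404A minus KO + S47A it gave -0.11 to 0.73. The sign of these 6 medians thus changed with the library left out. These fits had no block, so with a library left out the step between numbers enters the median. Within numbers 1, 2 and 3 the median was -0.48, -0.44 and -0.16 in KO + S47A minus Scramble. It was 0.18, 0.29 and 0.17 in KO + WT minus KO + S47A, and 0.07, 0.62 and 0.26 in KO + S404A minus KO + S47A. In KO + WT minus Scramble, KO + S404A minus Scramble and KO + S404A minus KO + WT its sign differed between numbers. For the numbers the medians ran from 0.84 to 1.00 (3 minus 1), 0.74 to 0.90 (3 minus 2) and 0.03 to 0.21 (2 minus 1). With 1 library of each number per line, the step of 1 line has no replicate. Each library held 40846694 counts or more.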

Other observations

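The lowest of the 15 libraries was KO + S47A 1 for 17 members, KO + S47A 2 for 14 and KO + WT 1 for 7. KO + S404A 2 was lowest for 2 members, and KO + S404A 1 and Scramble 2 for 1 each. The lowest library was not counted over all tested genes. Within the licensing genes, CDC6 and CDT1, which load the helicase, differed less between numbers (0.80 and 0.62 in number 3 minus 1) than the 6 helicase subunits (0.89 for MCM3 to 1.17 for MCM4). In KO + S47A minus KO with the number as a block, POLE and PRIM1 were the members with the smallest differences (-0.18 and -0.15).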
